A study of Homo sapiens with 18 samples.

Results

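The nuclear subunits of respiratory complexes II, III and IV and of the ATP synthase, complex V, were described in MEL624, an established human melanoma cell line. They were the protein-coding genes with a symbol that starts with UQCR, COX4, COX5, COX6, COX7, COX8 or ATP5, together with CYC1, SDHA, SDHB, SDHC and SDHD. This gave 44 of the 15258 genes listed: 4 of complex II, 10 of complex III, 11 of complex IV and 19 of complex V. The rule goes by name and uses no expression value, and the names brought in a few genes that are not fixed subunits: ATP5IF1 is the inhibitor of the ATP synthase, COX7A2L is a factor of respiratory supercomplexes, UQCRHL is an intronless copy of UQCRH, and ATP5MF-PTCD1 is a readthrough of ATP5MF into PTCD1. Input mRNA came from the PCIF1 knockouts KO1 and KO2, each a single clone, and from control cells, which are wild type with a random sgRNA. PCIF1 is the methyltransferase that turns a cap-adjoining adenosine of mRNA into m6Am. There were 3 biological replicates per line (A, B and C) in the same standard medium, and the matching m6A-immunoprecipitated libraries were not analysed here. With 1 control line and 1 clone per knockout, a p-value here speaks of library-to-library spread within lines, not of spread among separately edited lines.

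In the inner mitochondrial membrane, complex II passes electrons from succinate to ubiquinone, complex III passes them from ubiquinol to cytochrome c, and complex IV passes them from cytochrome c to oxygen. Complexes III and IV pump protons, and the ATP synthase uses the returning protons to make ATP. Complex II is encoded in the nucleus throughout, whereas the other complexes join nuclear subunits to a few made from mitochondrial DNA, and many of the nuclear promoters are known targets of the factors NRF1, GABPA (an ETS protein) and YY1. In melanoma cells this machinery is known to be raised by the melanocyte factor MITF through the coactivator PPARGC1A.

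Values were log2 TPM, a length-normalised abundance on a log scale, as the authors deposited them. Reads on genes, recovered from the values, numbered 7848089 to 11393206 per library. The members took 0.624% to 0.646% of the reads in the KO1 libraries, 0.674% to 0.724% in KO2 and 0.682% to 0.696% in control. PCIF1 mRNA, which checks the labels, stood at 23.98 ± 1.77 TPM in KO1, 60.3 ± 3.86 TPM in KO2 and 57.6 ± 3.84 TPM in control (SD, n = 3 each), so it was lower in the line labelled KO1 and not in the line labelled KO2, where an edit need not lower the mRNA. Of 7 melanocyte markers MITF alone was analysed here, at 26.3 ± 2.49 TPM in KO1, 50.02 ± 2.26 TPM in KO2 and 37.1 ± 1.14 TPM in control, and it fell in KO1 (log2 fold change -0.50, SE 0.0706, limma adjusted p = 0.000531) and rose in KO2 (log2 fold change 0.43, SE 0.0706, limma adjusted p = 0.00128), where the 50 tested genes nearest to it on chromosome 3 had a median log2 fold change of 0.36. PPARGC1A stood at 0.91, 0.927 and 0.926 TPM in KO1, KO2 and control, below the 1 TPM minimum for testing. The summed markers of other cell types differed between control and the clones. For 2 of 5 fibroblast genes the sums were 2.76 to 3.52 TPM in KO1, 1.26 to 1.87 in KO2 and 0.745 to 1.02 in control. LUM rose (means of 2.39, 1.15 and 0.0665 TPM in KO1, KO2 and control), on 57, 26 and 1 reads in all, so its control level is near the floor. COL1A1 was below the 1 TPM minimum and was not tested (0.72, 0.401 and 0.805 TPM). The sums of 2 of 5 endothelial genes were 16.03 to 16.9, 15.5 to 17.7 and 8.57 to 9.55 TPM in KO1, KO2 and control. Those of 2 of 5 epithelial genes were 948 to 988, 851 to 928 and 1061 to 1082 TPM. KRT18 fell in both clones (log2 fold change -0.16 in KO1 and -0.30 in KO2), and KRT8 was not called. In the same order, 1 of 4 leukocyte genes had 129 to 139, 134 to 143 and 180 to 192 TPM. No muscle marker of 4 was analysed here, and the part of these markers in the results was not tested.

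All 44 members were expressed above the 1 TPM minimum. In control, ATP5F1B, the catalytic β subunit of the ATP synthase, was the most abundant at 2391 ± 20.1 TPM (SD, n = 3), with 13459 to 17974 reads per library. COX8A, a small membrane subunit of complex IV, followed at 936 ± 20.7 TPM, and COX6B1, on its intermembrane side, at 508 ± 18.1 TPM. In complex III, CYC1 (cytochrome c1, 413 ± 11.9 TPM) and UQCRH (the hinge subunit, 412 ± 14.5 TPM) overlapped in their control ranges and stood above UQCRQ, UQCRC1 and the remaining subunits. In complex IV, COX6A1, COX7C, COX5B and COX4I1 lay between 225 and 245 TPM, and each of their ranges met that of the next in order. In complex II the order was SDHB (204 ± 11.6 TPM), SDHA (65.8 ± 2.22 TPM), SDHD (50.3 ± 2.34 TPM) and SDHC (38.2 ± 0.902 TPM), with no overlap of ranges between neighbours. Below SDHC lay only UQCRB at 24.9 ± 2.22 TPM and UQCRHL at 3.13 ± 0.273 TPM on 15 to 24 reads per library.

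**Figure D1:**
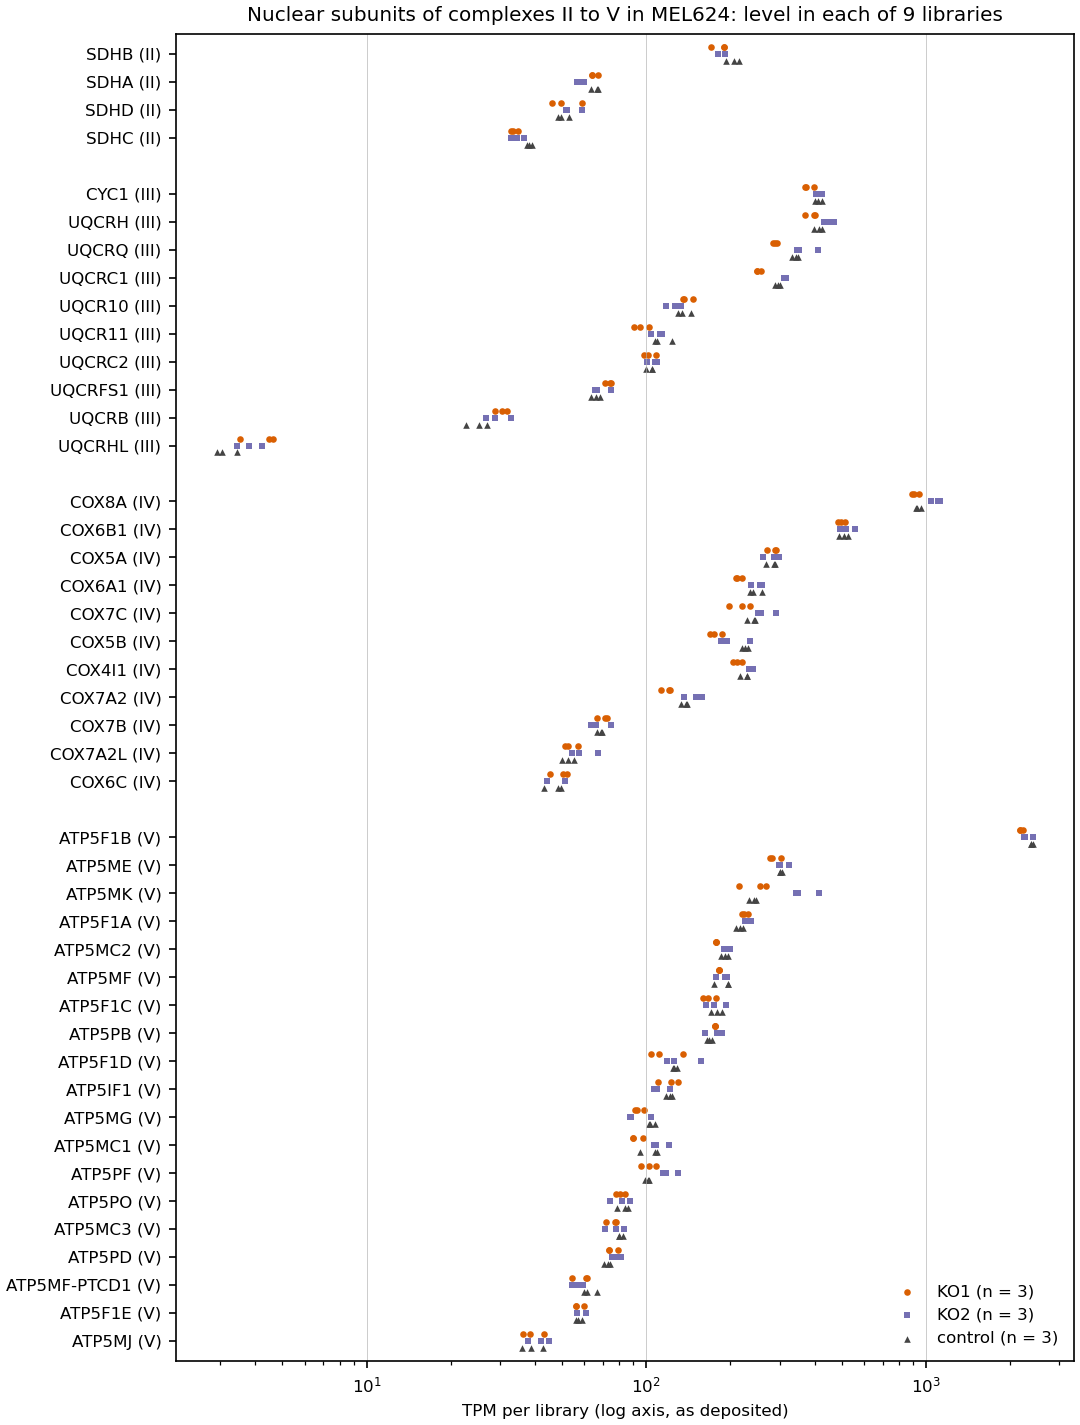
Level of each of the 44 subunits in TPM (log axis), with 1 point per library, for KO1, KO2 and control (3 libraries each), grouped by complex and ordered by the control mean. ATP5F1B stands highest at 2391 TPM and UQCRHL lowest at 3.13 TPM in control, and for most subunits the 9 points lie close together.

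The order of levels depended on the transcript length that the deposited TPM divides by. For the members that length, recovered from the values, had a median of 2.44 times the canonical GENCODE transcript (0.936 to 10.8 times), against 1.33 times over all tested genes. With canonical lengths COX4I1, the largest nuclear subunit of complex IV, moved from rank 7 to rank 1 of its complex (865 instead of 225 TPM in control), since 4792 bases were replaced by 763. SDHC, a membrane anchor of complex II, moved from rank 4 to rank 2 (254 instead of 38.2 TPM, 1308 instead of 14160 bases). ATP5MC2, a c-ring gene of the ATP synthase, moved from rank 5 to rank 2 (738 instead of 191 TPM), whereas ATP5F1B kept rank 1 of complex V at 1936 TPM. Within a gene the same length divides every library.

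**Figure D2:**
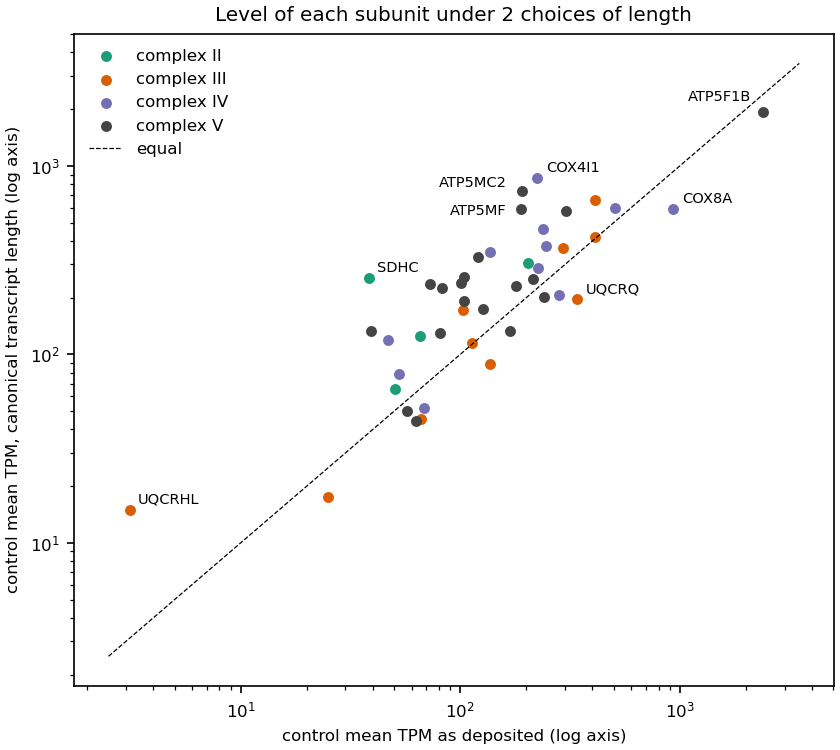
Control mean level of each subunit (mean of 3 libraries) with the deposited length (horizontal log axis, TPM) and with the canonical transcript length (vertical log axis, TPM), coloured by complex, and a dashed line where both are equal. SDHC, COX4I1 and ATP5MC2 lie far above the line, whereas COX8A and UQCRQ lie below it.

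Comparing each clone with control asks which subunit mRNAs differ in that clone, and the part of PCIF1 loss in a difference was not tested. In KO1, 10 of 44 members were lower (22.7%, against 14.1% of all tested genes) and 1 was higher (2.27%, against 20.2%), at a limma adjusted p under 0.05 over 14512 genes. That made 11 called members (25.0%), against 34.3% of all genes. Complexes III and IV held 7 of the 10 lower ones. Falls of the 10 lay between 6.8% and 21.6%. In KO2, 3 members were higher (6.82%, against 15.6% of all genes) and 1 was lower (2.27%, against 14.8%), together 9.09% against 30.4%. No member passed limma in both clones and 29 passed in neither. An unadjusted p under 0.05 in both was found for 4 members: SDHC and ATP5MG were lower and UQCRB was higher in both, and UQCRC1 went opposite ways, lower in KO1 and higher in KO2. Of these, limma-voom on the recovered reads called 3 in both, SDHC, ATP5MG and UQCRB. The median log2 fold change of the members was -0.041 in KO1, against 0.035 over all genes, and 0.035 in KO2, against 0.0099. Both comparisons use the same 3 control libraries. How many of all genes passed in both clones or in neither is not given here, so those counts have no share beside them.

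**Figure D3:**
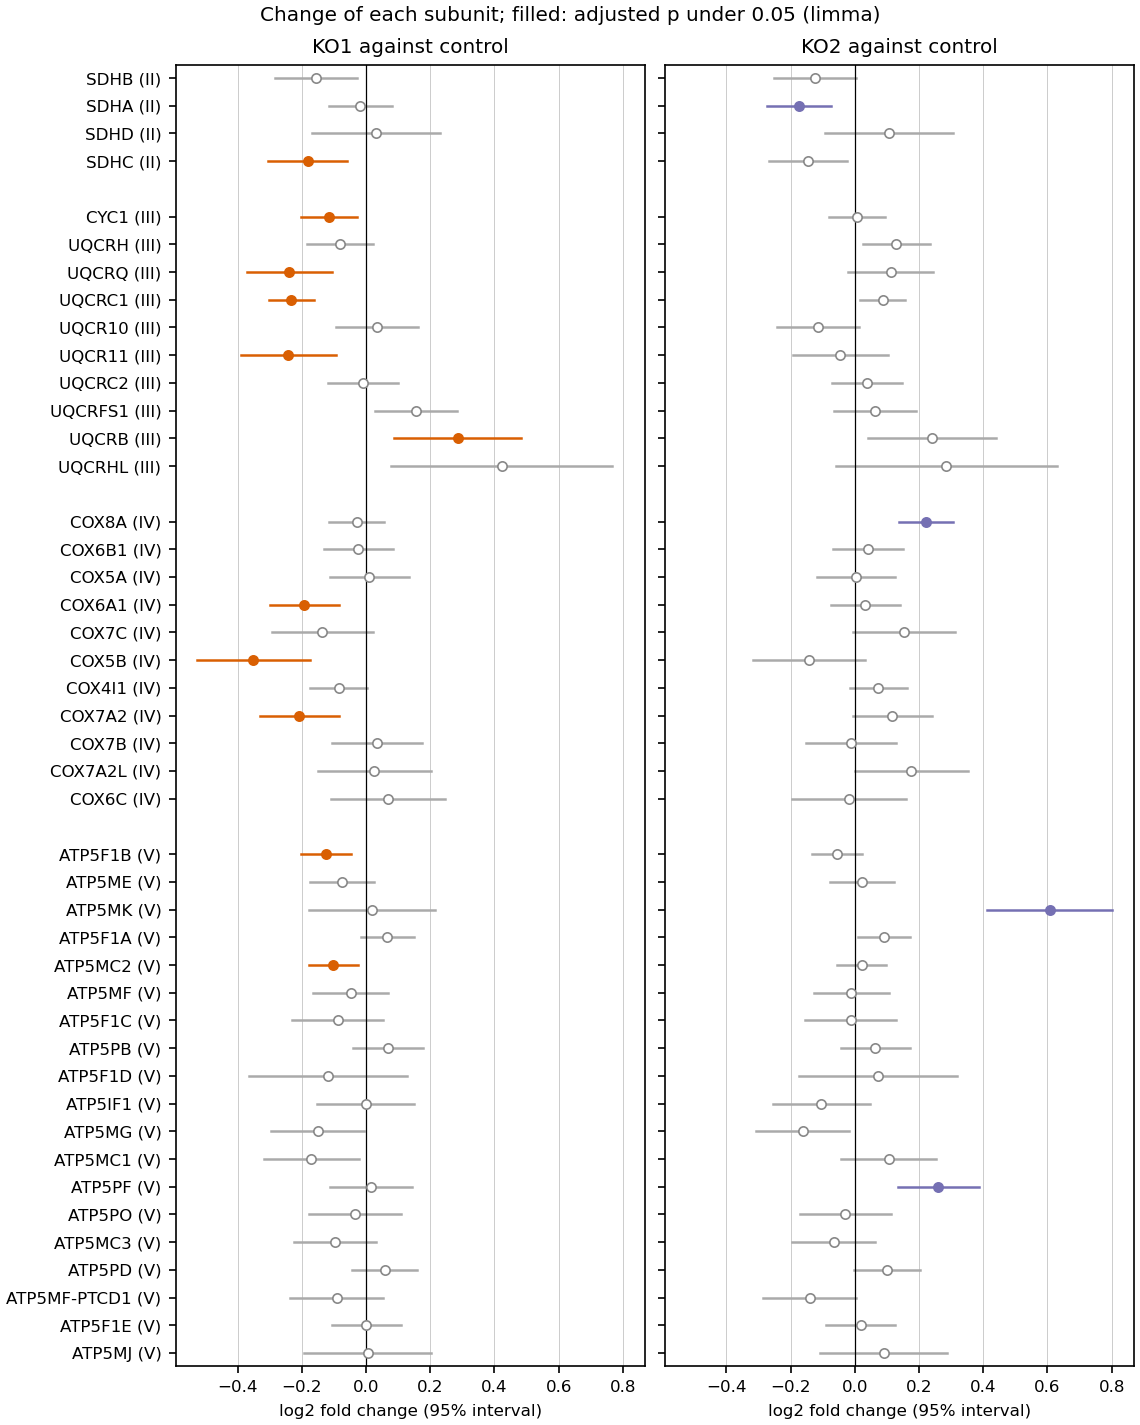
Log2 fold change of each subunit with its 95% interval for KO1 against control (left) and KO2 against control (right), grouped by complex, with filled points where the limma adjusted p is under 0.05. In KO1 10 filled points lie below 0 and UQCRB lies above it, and in KO2 COX8A, ATP5PF and ATP5MK lie above 0 and SDHA below it.

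Start sites of the members are shown for the 6 whose call against control held in all 21 alternative analyses (UQCRC1, UQCRQ, COX5B and COX6A1 in KO1, COX8A and ATP5PF in KO2) and for ATP5MK, which had the largest change. The windows run from 60 bases before the annotated RefSeq start to base 10 of the transcript (GRCh38.p14), 5′ to 3′ on the strand of the gene. Capitals mark the ETS motif CCGGAAG, read on either strand, and the YY1 motif AAGATGGC.
UQCRC1 (chr3:48609637-48609706, minus strand): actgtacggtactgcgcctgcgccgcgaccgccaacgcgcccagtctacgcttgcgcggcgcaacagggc
UQCRQ (chr5:132866582-132866651, plus strand): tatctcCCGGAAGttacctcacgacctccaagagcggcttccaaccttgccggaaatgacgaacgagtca
COX5B (chr2:97646002-97646071, plus strand): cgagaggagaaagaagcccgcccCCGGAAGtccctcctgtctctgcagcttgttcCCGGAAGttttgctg
COX6A1 (chr12:120438053-120438122, plus strand): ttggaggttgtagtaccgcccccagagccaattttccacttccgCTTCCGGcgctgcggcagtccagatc
COX8A (chr11:63974560-63974629, plus strand): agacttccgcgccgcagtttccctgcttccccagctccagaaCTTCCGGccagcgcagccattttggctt
ATP5PF, start 1 of 2 (chr21:25734895-25734964, minus strand): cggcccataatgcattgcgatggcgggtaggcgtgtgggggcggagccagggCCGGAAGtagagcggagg
ATP5PF, start 2 of 2 (chr21:25735045-25735114, minus strand): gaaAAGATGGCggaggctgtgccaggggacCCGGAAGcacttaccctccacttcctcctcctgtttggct
ATP5MK (chr10:103396466-103396535, minus strand): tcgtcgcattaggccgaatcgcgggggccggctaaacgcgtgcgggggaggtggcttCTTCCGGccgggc
The ETS motif lay at or just before the start in COX5B (bases -37 and -5), COX6A1 (-16), COX8A (-18), ATP5MK (-3) and ATP5PF (-8 and -30), and farther upstream in UQCRQ (-54). The printed UQCRC1 window held neither motif, and a YY1 match lay beyond it, at bases 24 to 31 of the transcript. RefSeq gave promoters of 300 bases for 34 of the 44 members (40 windows from 250 bases before to 50 after each start). The ETS motif was in 42.5% of them, against 17.3% of the windows of tested genes and 10.3% of all 35116 windows. The core of the NRF1 motif, GCGCATGC, was in 22.5%, against 4.85% and 3.05%, and the YY1 motif in 15.0%, against 4.89% and 2.89%. Both strands were searched, and overlapping matches of different motifs were counted for each.

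Members with and without each motif are set side by side as a description, for the 34 with a window. SDHC, CYC1, UQCRB and ATP5F1B, which were called in KO1, have none and are left out. Of all tested genes, 14.1% were lower in KO1, and 15.6% were higher and 14.8% lower in KO2. Of the 16 members with the ETS motif, 4 were lower in KO1 and 3 were higher in KO2, with medians of -0.077 and 0.082. Of the 18 without it, 3 were lower in KO1 and 1 was lower in KO2, with medians of -0.0044 and 0.03. With the NRF1 motif, 3 of 8 were lower in KO1 and 1 was higher in KO2 (medians -0.095 and 0.022). Without it, 4 of 26 were lower in KO1, and KO2 had 2 higher and 1 lower (-0.013 and 0.069). With the YY1 motif, 1 of 5 was lower in KO1 and 1 higher in KO2 (-0.034 and 0.064). Without it, 6 of 29 were lower in KO1, and KO2 had 2 higher and 1 lower (-0.024 and 0.041). Because PCIF1 acts on a cap-adjacent adenosine, the annotated start base was also counted. It was A in 12 of the members' 40 windows, against 45.7% of those of tested genes, and C in 37.5%, against 12.3%. Of 9 members with A at every start (COX5B, COX6A1, COX8A, UQCR11 and SDHA among them), 3 were lower in KO1, and KO2 had 1 higher and 1 lower. Of 22 without an A start (UQCRC1, UQCRQ and ATP5MK among them), 3 were lower in KO1 and 1 was higher in KO2. Their medians were -0.029 with A and -0.021 without in KO1, and 0.0033 and 0.064 in KO2. Left out of both start groups were 3 members with A at some starts only, among them COX7A2 (lower in KO1) and ATP5PF (higher in KO2). An annotated start need not be the base at which these cells begin the transcript.

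In complex II, SDHC fell in KO1 and SDHA in KO2, and SDHB and SDHD were called in neither clone. SDHC had 32.8, 34.8 and 33.5 TPM in the KO1 libraries, 36.5, 32.8 and 34.4 TPM in KO2 and 37.4, 38.1 and 39.2 TPM in control. Every library of either clone lay below every control library. Its level fell by 11.9% in KO1 (log2 fold change -0.18, SE 0.0545, limma adjusted p = 0.0266), and it did not pass in KO2 (log2 fold change -0.15, SE 0.0545, limma adjusted p = 0.0682). The call was lost with the replicate block (adjusted p = 0.0604) and with control replicate B or C or KO1 replicate A or C left out, at adjusted p up to 0.0833 (log2 fold change -0.34 to -0.16 over all alternatives). SDHA, the flavoprotein that oxidises succinate, had 66.96, 63.95 and 64.1 TPM in the KO1 libraries, 59.8, 58.7 and 56.6 TPM in KO2 and 63.3, 67.4 and 66.9 TPM in control. It was lower in all 3 KO2 libraries than in any other library and fell by 11.3% (log2 fold change -0.17, SE 0.0442, limma adjusted p = 0.0142), whereas KO1 overlapped control (log2 fold change -0.018, SE 0.0442, limma adjusted p = 0.785). Without control replicate B its adjusted p was 0.0588 (range of log2 fold changes over the alternatives -0.20 to -0.15). SDHB, the iron-sulfur subunit, stood at 184 ± 11.9 TPM in KO1, 187 ± 6.59 TPM in KO2 and 204 ± 11.6 TPM in control (SD, n = 3 each), with every clone library below control but no call (log2 fold change -0.16, SE 0.057, limma adjusted p = 0.0592 in KO1). SDHD, the other membrane anchor, stood at 51.6 ± 6.7 TPM in KO1, 54.2 ± 3.99 TPM in KO2 and 50.3 ± 2.34 TPM in control and overlapped throughout. The summed TPM of the 4 genes was 334 ± 15.7 in KO1, 335 ± 10.2 in KO2 and 359 ± 11.3 in control.

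Complex III held 4 of the 10 members that fell in KO1 and the only one that rose. UQCRC1 (ENSG00000010256, minus strand of chromosome 3, 48599002 to 48610976 in hg38), a core protein of the matrix side, had 257, 248 and 248 TPM in the KO1 libraries, 311, 315 and 313 TPM in KO2 and 288, 300.1 and 297 TPM in control. The 3 lines did not overlap, with KO1 lowest and KO2 highest. It fell by 14.9% in KO1 (log2 fold change -0.23, SE 0.0309, limma adjusted p = 0.000378), and in KO2 it did not pass (log2 fold change 0.086, SE 0.0309, limma adjusted p = 0.0595). UQCRQ (ENSG00000164405, plus strand of chromosome 5, 132866630 to 132868847), which lies beside cytochrome b, had 289.6, 294 and 285 TPM in the KO1 libraries, 346, 352 and 412 TPM in KO2 and 349, 331 and 344 TPM in control. All KO1 libraries were below control, and KO2 replicate C was far above the rest. It fell by 15.2% in KO1 (log2 fold change -0.24, SE 0.0595, limma adjusted p = 0.0119) and did not pass in KO2 (log2 fold change 0.11, SE 0.0595, limma adjusted p = 0.188).

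UQCR11, a small membrane subunit, had 103, 90.5 and 94.96 TPM in the KO1 libraries, 112, 114 and 104 TPM in KO2 and 109, 108 and 124 TPM in control. KO1 lay below control, whose replicate C was its highest, and the fall in KO1 was 15.4% (log2 fold change -0.24, SE 0.0661, limma adjusted p = 0.0182). It was lost without control replicate C or KO1 replicate B or C, at adjusted p up to 0.0663 (log2 fold changes -0.30 to -0.18 over all alternatives). CYC1, which hands electrons to cytochrome c, had 399.5, 374 and 369 TPM in the KO1 libraries, 413, 425 and 406 TPM in KO2 and 401, 411 and 425 TPM in control. KO1 was just below control, the fall was 7.71% (log2 fold change -0.12, SE 0.0391, limma adjusted p = 0.0441), and the call was lost in 10 of 21 alternatives. They left out control replicate B or C, KO1 replicate B or C, or KO2 replicate A, or dropped the variance trend, fitted the lines alone, blocked on the replicate letter, or subtracted neighbours or GC and length (log2 fold changes -0.15 to -0.059). UQCRB, a ubiquinone-binding subunit, moved the other way, with 28.8, 31.6 and 30.5 TPM in the KO1 libraries, 26.8, 28.8 and 32.8 TPM in KO2 and 25.1, 27.02 and 22.6 TPM in control. The KO1 libraries lay above control and KO2 overlapped it (log2 fold change 0.29, SE 0.0887, limma adjusted p = 0.0312 in KO1, and log2 fold change 0.24, SE 0.0887, limma adjusted p = 0.0663 in KO2). The KO1 call was lost without control replicate A or C or KO1 replicate B or C, under median centring, without the variance trend and with GC and length subtracted, at adjusted p up to 0.109 (log2 fold changes 0.18 to 0.35).

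UQCRFS1, the Rieske iron-sulfur protein, lay just outside the threshold in KO1, with 73.5 ± 2.03 TPM in KO1, 69.00 ± 5.14 TPM in KO2 and 65.97 ± 2.31 TPM in control (SD, n = 3 each; log2 fold change 0.16, SE 0.0567, limma adjusted p = 0.0577). UQCRH, the hinge protein that helps cytochrome c dock, had 369, 403 and 399.6 TPM in the KO1 libraries, 433, 451 and 470.0 TPM in KO2 and 426, 415 and 397 TPM in control. KO2 lay above both other lines, but the difference from control did not pass (log2 fold change 0.13, SE 0.0463, limma adjusted p = 0.0592). UQCRHL, with 15 to 25 reads per library, stood at 4.21 ± 0.6 TPM in KO1, 3.81 ± 0.396 TPM in KO2 and 3.13 ± 0.273 TPM in control and did not pass either (log2 fold change 0.42, SE 0.155, limma adjusted p = 0.0587 in KO1), and reads of the near-identical UQCRH may have been split between the copies. UQCRC2, the other core protein, and UQCR10 had log2 fold changes of -0.0084 and 0.033 in KO1 and 0.038 and -0.11 in KO2, none called. The sum of complex III was 1758 ± 12.9 TPM in KO1, 1993 ± 58.4 in KO2 and 1908 ± 10.4 in control, and the KO1 libraries lay below control in it.

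In complex IV, 3 of 11 members fell in KO1 and COX8A rose in KO2. COX5B (ENSG00000135940, plus strand of chromosome 2, 97646062 to 97648383), the zinc-binding subunit on the matrix side, had 187, 175 and 169 TPM in the KO1 libraries, 186, 236 and 194 TPM in KO2 and 232, 220.0 and 225 TPM in control. All KO1 libraries were below control, whereas KO2 replicate B stood above the control libraries and the other KO2 libraries below them. It had the largest fall of any member, 21.6% in KO1 (log2 fold change -0.35, SE 0.0784, limma adjusted p = 0.00697), and in KO2 it did not pass (log2 fold change -0.14, SE 0.0784, limma adjusted p = 0.202). COX6A1 (ENSG00000111775, plus strand of chromosome 12, 120438090 to 120440737), the widely expressed form of a subunit that also has a muscle form, had 210.2, 220.5 and 211 TPM in the KO1 libraries, 254, 237 and 259 TPM in KO2 and 241, 234 and 259 TPM in control. Its KO1 libraries lay below all others, a fall of 12.5% (log2 fold change -0.19, SE 0.048, limma adjusted p = 0.0118), and KO2 overlapped control (log2 fold change 0.032, SE 0.048, limma adjusted p = 0.655). An overlapping gene on the same strand, ENSG00000111780, had a KO1 log2 fold change of -0.19 (limma adjusted p = 0.107), and reads common to both cannot be told apart.

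COX7A2, again the widely expressed partner of a muscle form, had 113, 121 and 122 TPM in the KO1 libraries, 137, 151 and 158 TPM in KO2 and 140.0, 138 and 133 TPM in control. KO1 lay below control, a fall of 13.4% (log2 fold change -0.21, SE 0.0551, limma adjusted p = 0.0157), and KO2 overlapped control (log2 fold change 0.12, SE 0.0551, limma adjusted p = 0.142). Leaving out control replicate A or B or KO1 replicate A ended the KO1 call, at adjusted p up to 0.0557 (log2 fold changes -0.25 to -0.17). COX8A (ENSG00000176340, plus strand of chromosome 11, 63974620 to 63976543) had 947, 894 and 909 TPM in the KO1 libraries, 1043, 1125 and 1103 TPM in KO2 and 959, 921 and 926 TPM in control. The KO2 libraries exceeded all others, KO1 overlapped control, and the rise in KO2 was 16.5% (log2 fold change 0.22, SE 0.0378, limma adjusted p = 0.00163; KO1 log2 fold change -0.029, SE 0.0378, limma adjusted p = 0.587). Under quantile normalization the rise in KO2 was 0.13 (log2, limma adjusted p = 0.0144). A same-strand overlapping gene, ENSG00000256100, rose in KO2 as well (log2 fold change 0.31, limma adjusted p = 0.0311).

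The remaining members of complex IV were called in neither clone. COX4I1 had 221, 211 and 204 TPM in the KO1 libraries, 234, 233 and 242 TPM in KO2 and 216, 229 and 228 TPM in control, so KO2 lay above control without passing (log2 fold change 0.073, SE 0.0398, limma adjusted p = 0.196). COX7C had 198, 235 and 220.1 TPM in the KO1 libraries, 250.3, 257 and 291 TPM in KO2 and 246, 242 and 229 TPM in control, with KO2 above control in every library and KO1 overlapping it (log2 fold change 0.15, SE 0.0707, limma adjusted p = 0.131 in KO2). COX5A, COX6B1, COX7B and COX6C, which complete the shell around the catalytic core, had log2 fold changes between -0.024 and 0.069 in KO1 and between -0.018 and 0.041 in KO2. COX7A2L stood at 53.5 ± 3.14 TPM in KO1, 59.6 ± 6.62 TPM in KO2 and 52.5 ± 2.54 TPM in control (SD, n = 3 each; log2 fold change 0.18, SE 0.0789, limma adjusted p = 0.121 in KO2). The complex summed to 2812 ± 37.3 TPM in KO1, 3177 ± 123 in KO2 and 2964 ± 47.2 in control.

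**Figure D4:**
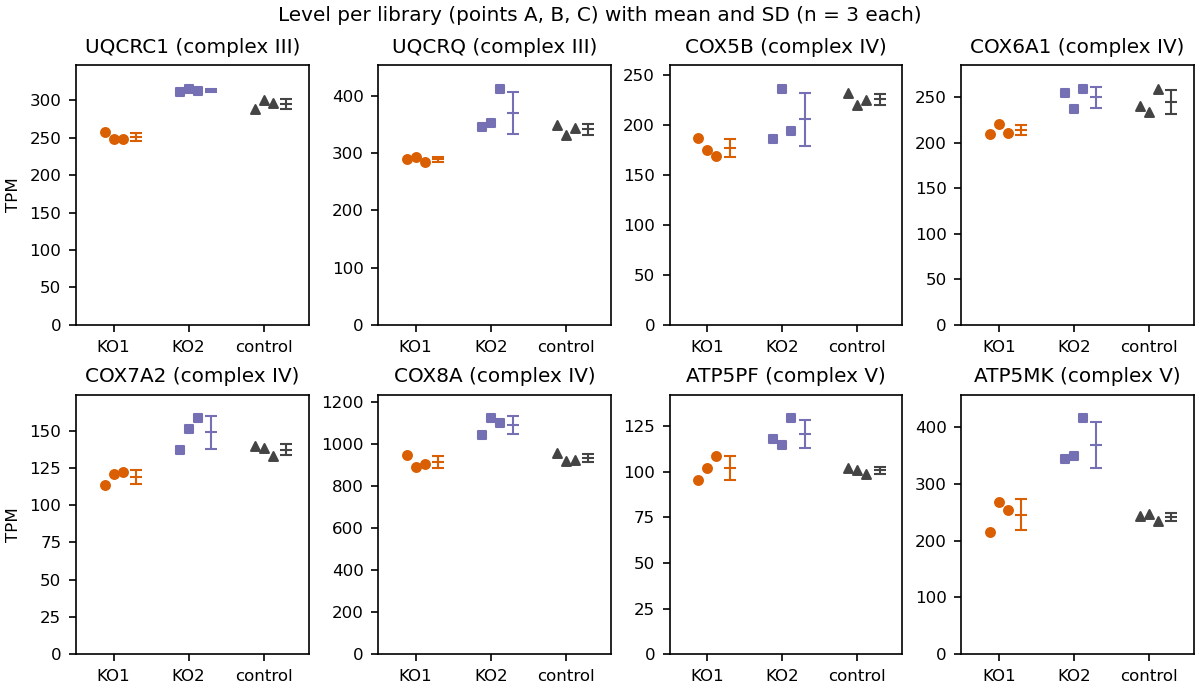
Level in TPM of 8 called members in each library (points A, B and C) with the mean and SD of each line (n = 3 each), for KO1, KO2 and control, each axis starting at 0. KO1 lies below control for UQCRC1, UQCRQ, COX5B, COX6A1 and COX7A2, and KO2 lies above control for COX8A, ATP5PF and ATP5MK.

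Of the 19 complex V members, 2 fell in KO1 and 2 rose in KO2. ATP5F1B, where ATP is formed, had 2169, 2231 and 2179.8 TPM in the KO1 libraries, 2256, 2236 and 2416 TPM in KO2 and 2382, 2414 and 2377 TPM in control. KO1 lay below control by 8.29% (log2 fold change -0.12, SE 0.035, limma adjusted p = 0.0203), and KO2 overlapped it (log2 fold change -0.056, SE 0.035, limma adjusted p = 0.265). The KO1 call was lost in 7 of 21 alternatives, those without control replicate B or C or KO1 replicate A or C, under quantile normalization, without the variance trend and with neighbours subtracted (adjusted p up to 0.109, log2 fold changes -0.16 to -0.06). The other subunits of the F1 head and its central stalk, ATP5F1A (α), ATP5F1C (γ), ATP5F1D (δ) and ATP5F1E (ε), had log2 fold changes from -0.12 to 0.067 in KO1 and from -0.013 to 0.091 in KO2, none called. ATP5F1D varied most of these between replicates, with 136, 104 and 111 TPM in KO1, 126, 157 and 119 TPM in KO2 and 126, 124 and 129 TPM in control.

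The proton-driven c ring is built from 1 protein encoded by ATP5MC1, ATP5MC2 and ATP5MC3. ATP5MC2 had 177, 178 and 178 TPM in the KO1 libraries, 190.4, 191 and 199 TPM in KO2 and 192, 196 and 184 TPM in control. KO1 lay below control by 6.8% (log2 fold change -0.10, SE 0.0345, limma adjusted p = 0.0446), and KO2 overlapped control (log2 fold change 0.022, SE 0.0345, limma adjusted p = 0.679). That call was lost in 10 of 21 alternatives, which left out control replicate A or B, any KO1 replicate or KO2 replicate A, dropped the variance trend, blocked on the letter, or subtracted neighbours or GC and length (adjusted p up to 0.159, log2 fold changes -0.14 to -0.082). ATP5MC1 had 89.9, 89.9 and 97.2 TPM in the KO1 libraries, 106, 108 and 121 TPM in KO2 and 109, 108 and 95.1 TPM in control, with KO1 overlapping control replicate C and no call against control (log2 fold change -0.17, SE 0.0664, limma adjusted p = 0.0732 in KO1). ATP5MC3 stood at 75.8 ± 3.22 TPM in KO1, 77.5 ± 5.86 TPM in KO2 and 80.98 ± 1.5 TPM in control (SD, n = 3 each; log2 fold change -0.10, SE 0.0577, limma adjusted p = 0.226 in KO1).

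In the peripheral stalk, which holds the head still, ATP5PF (ENSG00000154723, minus strand of chromosome 21, 25716503 to 25735673), coupling factor F6, was the only called member. It had 95.7, 102 and 108 TPM in the KO1 libraries, 118, 115 and 129 TPM in KO2 and 102, 101 and 98.8 TPM in control. All KO2 libraries were above the others, a rise of 19.7% (log2 fold change 0.26, SE 0.0568, limma adjusted p = 0.00648), and KO1 overlapped control (log2 fold change 0.016, SE 0.0568, limma adjusted p = 0.854). GABPA, which overlaps it on the opposite strand, had a KO2 log2 fold change of 0.19 (limma adjusted p = 0.108). ATP5PB, ATP5PD and ATP5PO, the b, d and OSCP subunits, had log2 fold changes of 0.069, 0.058 and -0.034 in KO1 and of 0.064, 0.10 and -0.029 in KO2.

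Among the small membrane subunits, ATP5MK (ENSG00000173915, minus strand of chromosome 10, 103389041 to 103396492), known as DAPIT and needed for dimers of the ATP synthase, changed most of all members. It had 215, 267 and 255 TPM in the KO1 libraries, 343, 349 and 416 TPM in KO2 and 243, 248 and 234 TPM in control. The KO2 libraries stood clear above the rest, replicate C highest, and the rise was 52.2% (log2 fold change 0.61, SE 0.0878, limma adjusted p = 0.000572), whereas KO1 overlapped control (log2 fold change 0.019, SE 0.0878, limma adjusted p = 0.888). TAF5, which overlaps it on the opposite strand, rose too (log2 fold change 0.42, limma adjusted p = 0.00948 in KO2). ATP5ME, ATP5MF, ATP5MG and ATP5MJ had log2 fold changes from -0.15 to 0.0047 in KO1 and from -0.16 to 0.089 in KO2, none called. ATP5IF1, which blocks the synthase from running backwards, stood at 121 ± 10.3 TPM in KO1, 113 ± 8.15 TPM in KO2 and 121 ± 3.18 TPM in control (SD, n = 3 each) and was not called (log2 fold change -0.00033, SE 0.0678, limma adjusted p = 0.997 in KO1, log2 fold change -0.10, SE 0.0678, limma adjusted p = 0.281 in KO2). ATP5MF-PTCD1, at 58.8 ± 4.09 TPM in KO1, 56.9 ± 2.71 TPM in KO2 and 62.7 ± 3.64 TPM in control, shares its reads with ATP5MF and PTCD1 and is uncertain. Complex V summed to 4570 ± 52.9 TPM in KO1, 4908 ± 199 in KO2 and 4829 ± 63.1 in control.

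Set against each other, the clones differed in 15 members (34.1%, against 28.7% of all genes): 14 were higher in KO2 (31.8%, against 11.8%) and 1 was lower (2.27%, against 16.9%). By complex, 5 of 10 members of complex III, 5 of 11 of complex IV and 4 of 19 of complex V were higher in KO2, and SDHA of complex II was lower. The members' median was 0.067, against -0.037 over all genes. With each library centred on its median, higher calls over all genes made up 55.5% of calls, against 41.1% as deposited. Of 14512 genes, 2199 were then higher and 1765 lower, and the members had 17 higher and 0 lower (1 lower as deposited, SDHA). In KO1 against control the same centring moved the share of higher calls over all genes to 49.7%, against 58.9% as deposited. It gave 2451 of all genes higher and 2478 lower, and 0 members higher and 13 lower. Quantile normalization gave 9 lower and 1 higher in KO1 and 13 higher and 1 lower between the clones. Over all genes it gave 2355 lower and 2553 higher in KO1, and 1852 higher and 2156 lower between the clones.

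Differences between the clones by role were these. In complex III they were largest for UQCRQ (log2 fold change 0.35, SE 0.0595, limma adjusted p = 0.00199) and UQCRC1 (log2 fold change 0.32, SE 0.0309, limma adjusted p = 6.98e-05). UQCRH exceeded KO1 in every KO2 library (log2 fold change 0.21, SE 0.0463, limma adjusted p = 0.00778), as did UQCR11 and CYC1 (log2 fold change 0.20, SE 0.0661, limma adjusted p = 0.0493, and for CYC1 log2 fold change 0.12, SE 0.0391, limma adjusted p = 0.0396). In complex IV, COX7A2 led (log2 fold change 0.32, SE 0.0551, limma adjusted p = 0.002), followed by COX7C (log2 fold change 0.29, SE 0.0707, limma adjusted p = 0.0128), COX8A (log2 fold change 0.25, SE 0.0378, limma adjusted p = 0.00104), COX6A1 (log2 fold change 0.22, SE 0.048, limma adjusted p = 0.00658) and COX4I1 (log2 fold change 0.16, SE 0.0398, limma adjusted p = 0.0146). In complex V, ATP5MK (log2 fold change 0.59, SE 0.0878, limma adjusted p = 0.000972), ATP5MC1 (log2 fold change 0.28, SE 0.0664, limma adjusted p = 0.0119), ATP5PF (log2 fold change 0.24, SE 0.0568, limma adjusted p = 0.0102) and ATP5MC2 (log2 fold change 0.12, SE 0.0345, limma adjusted p = 0.0238) were higher. SDHA was lower (log2 fold change -0.16, SE 0.0442, limma adjusted p = 0.0257). UQCRH, UQCRQ, COX7C, COX7A2, COX8A, COX6A1, ATP5MC1 and ATP5PF passed in all 21 alternatives, and the other 7 did not. COX4I1 was lost without KO1 replicate C and without the variance trend. UQCR11 was lost without control replicate A or B, KO1 replicate B or C, or KO2 replicate A or B, without the variance trend and with the replicate block (adjusted p up to 0.156, log2 fold changes 0.16 to 0.25). ATP5MC2 was lost without any of the KO1 replicates or KO2 replicate C, without the variance trend and with the replicate block (up to 0.0748, log2 fold changes 0.10 to 0.26). CYC1 was lost in 10 of 21 alternatives, those without control replicate B, KO1 replicate B or C, or KO2 replicate A or B (adjusted p up to 0.14), under quantile normalization, without the variance trend, with the lines fitted alone, with the replicate block, and with neighbours subtracted, where the difference reversed (-0.00904 on the log2 scale, adjusted p = 0.881). SDHA was lost in 7 of 21, those without KO1 replicate A or C or KO2 replicate C (up to 0.0854), with the replicate block, and in 3 settings that also shrank the difference: median centring (-0.11 on the log2 scale, adjusted p = 0.115), GC and length subtracted (-0.067, 0.178) and neighbours subtracted (-0.025, 0.803).

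KO2 replicate C was the highest KO2 library in 31 of 44 members (70.5%, against 33.3% of tested genes), and KO1 replicate B the highest KO1 library in 26 (59.1%, against 30.9%). All 44 members summed to 9459, 9587 and 9375 TPM in the KO1 libraries, 10146, 10268 and 10823 TPM in KO2 and 10148, 10089 and 9940 TPM in control. The KO1 sums thus lay below all others, and KO2 replicates A and B lay near control while replicate C lay above it. Without KO2 replicate C, 3 members were higher and 3 lower in KO2 against control, and 13 were higher and 2 lower in KO2 against KO1. Of all 14512 tested genes, 2044 were then higher and 1922 lower in KO2 against control, compared with 2266 and 2148 with every library. In KO2 against KO1 they were 1493 and 2059, compared with 1711 and 2454. Without KO2 replicate A the KO2 count was 6 higher and 2 lower, and that over all genes was 1803 higher and 1767 lower. Without control replicate B, KO1 replicate A or KO1 replicate C, the KO1 count fell to 6, 7 and 5 members. Calls over all genes in KO1 fell as well, from 2928 higher and 2047 lower. In the same order they were 2245 and 1513, 2361 and 1789, and 2210 and 1562.

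ATP5MK and UQCRC1 lie among genes that were themselves higher in KO2. The 50 tested genes nearest to ATP5MK on chromosome 10 had a median log2 fold change of 0.35 in KO2 against control, and those near UQCRC1 on chromosome 3 one of 0.40, compared with 0.0099 over all genes. For the other 42 members the neighbours' median lay between -0.19 and 0.18. ATP5MK exceeded its neighbours, and UQCRC1 lay far below them at 0.086. With the running median of 51 neighbouring genes subtracted, ATP5MK fell short of the threshold in KO2 (limma adjusted p = 0.0554, log2 fold changes over all alternatives 0.25 to 0.66) and against KO1 (0.0827, log2 fold changes 0.23 to 0.65), and the difference of UQCRC1 between the clones went to -0.026 (limma adjusted p = 0.583, log2 fold changes -0.026 to 0.37). The 4 other listed genes of mitochondrial function on chromosome 10 rose in KO2: TFAM by 0.90 on the log2 scale, COX15 by 0.62, VDAC2 by 0.59 and PPRC1 by 0.50, with neighbours' medians of 0.55, 0.35, 0.58 and 0.32. ATP5F1C, on the other arm of chromosome 10, stood at -0.013 with neighbours at -0.036.

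**Figure D5:**
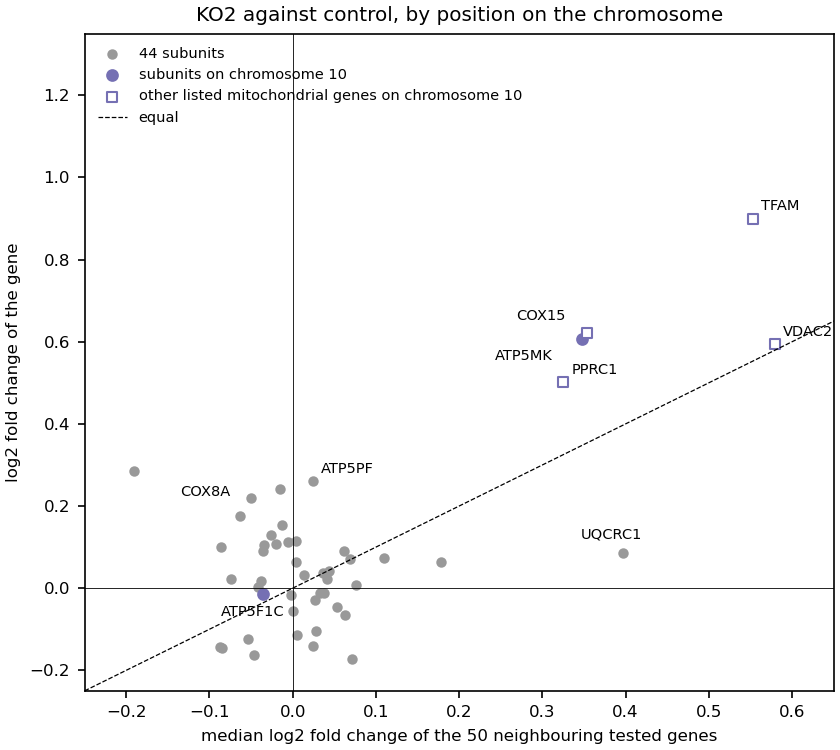
Log2 fold change of each subunit in KO2 against control (vertical axis) by the median log2 fold change of the 50 tested genes nearest to it on its chromosome (horizontal axis), with other listed mitochondrial genes of chromosome 10 as open squares and a dashed line where both are equal. ATP5MK lies at 0.35 and 0.61 beside COX15 and PPRC1, and UQCRC1 lies at 0.40 and 0.09.

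Several subunits have a form restricted to other tissues, such as muscle, lung or testis. COX4I2, COX6A2, COX6B2, COX7A1, COX7B2, COX8C and ATP5MGL were not analysed here. The 8 widely expressed partners, all members already counted above, were COX4I1, COX6A1, COX6B1, COX7A2, COX7B, COX8A, UQCRH and ATP5MG. In KO1, 2 were lower and 0 higher, against 14.1% and 20.2% of all genes. In KO2, 1 was higher and 0 lower, against 15.6% and 14.8%. In KO2 against KO1, 5 were higher and 0 lower, against 11.8% and 16.9%. Processed pseudogenes that bear the member's name can take up its reads: GENCODE lists 17 for COX6C, 8 each for ATP5MC1, ATP5MG and ATP5PB, and 7 each for COX5B, COX6A1, COX6B1 and ATP5F1A, and none for UQCRC1, UQCRQ or COX8A.

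The mitochondrially encoded partners of complexes III to V moved otherwise. Of 6, 5 were higher and 0 lower in KO1 (median 0.42), against 20.2% and 14.1% of all genes. In KO2, 1 was higher and 2 were lower, against 15.6% and 14.8%. In KO2 against KO1, 0 were higher and 5 lower, against 11.8% and 16.9%. MT-CYB, the cytochrome b that UQCRQ and UQCRB surround, stood at 2952 ± 274 TPM in KO1, 1994 ± 74.4 TPM in KO2 and 1623 ± 41.1 TPM in control (SD, n = 3 each; log2 fold change 0.86, SE 0.06, limma adjusted p = 5.71e-06 in KO1). MT-CYB also rose in KO2 (log2 fold change 0.30), and MT-ATP6 and MT-ATP8 rose in KO1 alone (0.55 and 0.61). MT-CO2 and MT-CO3 rose in KO1 (0.28 and 0.18) and fell in KO2 (-0.22 and -0.35). MT-CO1 was called in neither clone (-0.095 in KO1 and -0.0078 in KO2). Mitochondrial genes took 3.37% to 3.70% of reads in KO1, 3.25% to 3.59% in KO2 and 3.48% to 3.73% in control.

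Assembly factors of the same complexes are counted here beside 34.3% of all genes called in KO1 and 30.4% in KO2. For complex II, 2 of 4 were lower in KO1 and none was called in KO2: SDHAF1, which helps SDHB take up its iron-sulfur clusters (log2 fold change -0.42, SE 0.134, limma adjusted p = 0.0337), and SDHAF4, which binds SDHA (log2 fold change -0.70, SE 0.198, limma adjusted p = 0.0207). SDHAF4 rests on few reads, with 44 in KO1, 50 in KO2 and 73 in control over all libraries of each line. For complex III, 1 of 9 was higher and 1 lower in KO1, and 3 were higher and 1 lower in KO2. UQCC3, which stabilises cytochrome b, fell in both clones (-0.58 in KO1 and -0.44 in KO2, log2), LYRM7, the chaperone of UQCRFS1, rose in both (0.34 and 0.58), and UQCC5 and UQCC4 rose in KO2 (0.58 and 0.32, with neighbours' medians of 0.37 and 0.051). For complex IV, 4 of 26 listed genes were higher and 4 lower in KO1, and 4 were higher and 1 lower in KO2. The 26 include NDUFA4, which was called in neither clone. COX15, which makes haem A, rose in KO2 (log2 fold change 0.62, SE 0.0513, limma adjusted p = 1.46e-05), COA7 and COX20 rose in both clones (COA7 0.32 and 0.17, COX20 0.22 and 0.29), and SURF1 fell in KO1 (log2 fold change -0.32, SE 0.09, limma adjusted p = 0.0193). None of 5 complex V factors passed, and ATPAF2 came nearest (log2 fold change 0.27, SE 0.101, limma adjusted p = 0.0656 in KO1).

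Among 8 carriers that serve the complexes, 2 were higher and 0 lower in KO1, against 20.2% and 14.1% of all genes. In KO2, 4 were higher and 0 lower, against 15.6% and 14.8%. The ADP/ATP carrier SLC25A4 rose most, at 44.9 ± 0.879 TPM in KO1, 70.3 ± 2.7 TPM in KO2 and 35.1 ± 2.59 TPM in control (SD, n = 3 each; log2 fold change 0.36, SE 0.0585, limma adjusted p = 0.00127 in KO1 and log2 fold change 1.005, SE 0.0585, limma adjusted p = 1.49e-06 in KO2). Of 12 tested regulators of nuclear respiratory genes, 2 were higher and 3 lower in KO1, and 2 were higher and 0 lower in KO2, beside the same shares of all genes. NRF1, GABPA and YY1, whose motifs the members' promoters hold, were not called in KO1 (-0.15, 0.08 and -0.087, log2) or KO2 (-0.067, 0.19 and 0.071). ESRRA, a nuclear receptor of respiratory genes, fell in KO1 (log2 fold change -0.38, SE 0.0729, limma adjusted p = 0.00307), as did POLRMT, the mitochondrial RNA polymerase (log2 fold change -0.51, SE 0.106, limma adjusted p = 0.00476), and TFAM, which packages mitochondrial DNA, rose in both clones (0.25 in KO1 and 0.90 in KO2). Of the supercomplex factors, HIGD1A rose in KO2 (log2 fold change 0.50, SE 0.0979, limma adjusted p = 0.00357) among chromosome 3 neighbours with a median of 0.30, and COX7A2L and HIGD2A did not pass.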

How the data were processed

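Input mRNA of 3 lines was analysed, 3 libraries each. Per the labels' protocols, mRNA was isolated with beads and library preparation was directional. The authors deposited log2 TPM for 15258 genes. Per the submitters' processing notes the genome build was hg38 and the tools included featureCounts, deepTools 3.0.2, SAMtools 1.7, HISAT2 2.0.4, edgeR 3.12.1 and R 3.3.3. Annotation, strand setting and gene filter of the counting: not given in the sources used here. GENCODE 44 supplied symbols and coordinates for 15138 identifiers, with 120 unmatched, and RefSeq (GRCh38.p14) supplied promoters.

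Read counts per gene were rebuilt from the spacing of low values and came out whole for 100% of genes (tolerance 1e-06), 84602764 reads in all. Members had 15 to 17974 reads per library, and deeper members carry less counting error. No library was a copy of another (chi-square per degree of freedom between replicates 1.22 to 3.71).

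The test was limma-trend (limma 3.58.1, R 4.3.3) on the deposited log2 values of all 9 libraries, with a mean for each line and 6 residual degrees of freedom. It was two-sided, was adjusted by Benjamini-Hochberg over the 14512 genes averaging at least 1 TPM, and was tested on simulated data. Fold changes are on the deposited log2 scale, which includes a small prior count. The alternatives tried were pseudocounts of 1 and 5 TPM, no minimum or a minimum of 5 TPM, centring on the median, quantile normalization, dropping the variance trend, fitting the compared lines alone, a replicate block, leaving out single libraries, limma-voom on the rebuilt reads, and subtraction of a running median over 51 neighbours. Added after seeing the data were a correction for GC and length, canonical transcript lengths, overlapping genes and the count of highest replicates. Members, gene lists and tests were chosen with earlier results of these data known. Every member could be named, and up to 4 called genes of each other list, those with the largest changes. Some further genes of those lists are given for contrast.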

Additional observations from a re-analysis of the deposited data

Results flagged for a closer look

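The clones differed from each other in 15 members, by the limma test of KO2 against KO1 over all genes. The part of the knockout in these differences was not tested. The difference between the clones' log2 fold changes, KO2 minus KO1, was 0.59 for ATP5MK, 0.35 for UQCRQ, 0.32 for COX7A2, 0.32 for UQCRC1 and 0.29 for COX7C. It was 0.28 for ATP5MC1, 0.25 for COX8A, 0.24 for ATP5PF, 0.22 for COX6A1 and 0.21 for UQCRH. Smaller differences were 0.20 for UQCR11, 0.16 for COX4I1, 0.12 for CYC1 and 0.12 for ATP5MC2, and SDHA alone was negative at -0.16. Every group held 3 libraries, too few for a formal test of single outlying libraries. The counts with 1 library left out are given below.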

How the results depend on the processing

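The count of called members in KO1 (11) was 17 with limma-voom on recovered reads and ranged from 5 to 14 with 1 library left out. Calls over all 14512 genes in KO1 (2928 higher, 2047 lower) were 2794 and 2815 with voom. With 1 library left out they were 2210 to 3047 higher and 1513 to 2159 lower. The count in KO2 (4, as 3 higher and 1 lower) was 8 with voom (5 higher, 3 lower) and 9 with the running median of 51 neighbours subtracted (7 higher, 2 lower). It was 10 with GC and length subtracted (5 higher, 5 lower), and 4 to 8 with 1 library left out. Calls over all genes in KO2 (2266 higher, 2148 lower) were 2483 and 2560 with voom and 1849 and 2012 with neighbours subtracted. They were 2526 and 2588 of 14396 genes with GC and length subtracted. With 1 library left out they were 1767 to 2221 higher and 1634 to 2090 lower. The count in KO2 against KO1 (15) ranged from 10 to 15 with 1 library left out and stayed within 1.5 times under the other settings. Calls over all genes between the clones (1711 higher, 2454 lower) were 1275 to 1658 higher and 1677 to 2318 lower with 1 library left out. Of 630 recomputed values of called members, 548 kept direction and call, 80 kept direction but missed the threshold, and 2 reversed. Both reversals came from subtracting the running neighbour median in KO2 against KO1: UQCRC1 became -0.026 (limma adjusted p = 0.583) and CYC1 became -0.00904 (0.882), and that step removes any change shared with neighbouring genes. In all, 14 of 30 calls held under every alternative.

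Same-letter replicates did not deviate together (correlations -0.0736 to 0.0371), so the letters were not taken as pairs. With the replicate block 8 members were called in KO1, 4 in KO2 and 11 in KO2 against KO1. Canonical lengths changed levels and ranks, as given in the text. Depth limits UQCRHL most, at 15 to 25 reads per library.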
